A study of Mus musculus with 12 samples.

Results

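Clade B serpins are serine protease inhibitors that stay mostly inside the cell, because they lack a classical secretion signal. A serpin offers its target protease an exposed loop as bait, and when the protease cuts the loop the serpin refolds and traps it in a covalent complex. In blood cells the family is known for guarding the cytoplasm against proteases that leak from the cell's own granules or that arrive from killer lymphocytes. The 8 clade B genes described here are Serpinb1a, Serpinb2, Serpinb6a, Serpinb6b, Serpinb8, Serpinb9, Serpinb9b and Serpinb10. They were taken by symbol from a counts file of 55376 genes, and all 8 of the 8 were among the 11994 genes that passed the filter on low counts.

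The libraries came from mouse bone marrow progenitors sorted as c-Kit+/Sca-1+/Lin-, a fraction rich in stem cells, and grown in RPMI medium with IL-3 at 20 ng/ml, IL-6 at 20 ng/ml and SCF at 100 ng/ml. Every culture received a retroviral MSCV construct and was selected with geneticin, and every culture also carried an shRNA. The first group expressed NUP98-NSD1 and shNizp1#2, the second NUP98-NSD1 and shNizp1#1, the third NUP98-NSD1 and sh#ctrl, and the fourth the MSCV vector without the fusion and sh#ctrl, with 3 libraries in each of the 4 groups. NUP98-NSD1 joins a nucleoporin to a histone H3 lysine 36 methyltransferase and occurs in acute myeloid leukaemia, and Nizp1 is a zinc finger partner of NSD1 whose gene is Zkscan17. The cultures are transduced and selected cell populations driven by a retroviral promoter, the strain and age of the donor animals are not given in the labels, and the design text speaks of independent experiments without naming animals. The p-values therefore measure the spread between these libraries.

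Libraries held between 3586538 and 6842589 counts. Levels are in CPM, the library-scaled counts per 1e6 counts over the tested genes with TMM factors, and a gene with 3 counts lay at 0.417 to 0.837 CPM depending on the library. Zkscan17 averaged 24.5 ± 6.08 CPM with shNizp1#2 and 30.5 ± 4.37 CPM with shNizp1#1, against 57.9 ± 7.42 CPM in fusion cells with sh#ctrl (SD, n = 3 each), which checks the knockdown labels. Libraries that carry the same replicate number in their labels deviated together from their group means, and the number 3 libraries stood apart. Summed over 10 neutrophil marker genes, they held 2.82 to 10.4 CPM, against 846 to 1609 CPM in number 2 and 202 to 454 CPM in number 1. Only 3 to 6 of those 10 genes had a count in each number 3 library, and Camp, Ltf and Retnlg were at 0 in all 4 of them. The 9 monocyte and macrophage markers summed to 94.7 to 1159 CPM in number 3, 2050.0 to 3779 CPM in number 2 and 863 to 1565 CPM in number 1. All 9 mast cell markers had counts in every library, at summed levels of 39283 to 45564 CPM in number 3, 45563 to 57367 CPM in number 2 and 49704 to 63163 CPM in number 1. All 5 stem and progenitor markers had counts in every library too, at summed levels of 3846 to 4802 CPM. Kit is in both lists, and single stem and progenitor markers were called in both directions between numbers, as given below. Group comparisons were therefore fitted both with 1 mean per group and with the replicate number as a block, and values of both fits are given.

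The 8 genes took 0.193% to 0.345% of the counts of a library, and Serpinb1a alone supplied 92.7% of those counts, with a range over libraries from 89.1% to 94.7%. Per kilobase of transcript, Serpinb1a was at 1217 ± 326 CPM per kb over the 12 libraries (SD). It encodes the mouse form of the monocyte and neutrophil elastase inhibitor, which blocks neutrophil elastase, proteinase 3 and cathepsin G. Serpinb6a, a cathepsin G inhibitor with a wide tissue range, followed at 63.8 ± 9.41 CPM per kb. Neither overlapped any other member in its range over libraries, which was 865 to 1796.5 CPM per kb for Serpinb1a and 46.0 to 77.7 CPM per kb for Serpinb6a. Serpinb2, the urokinase inhibitor PAI-2, was at 10.2 ± 5.30 CPM per kb, and Serpinb9, the inhibitor of granzyme B, at 6.02 ± 2.23 CPM per kb. Serpinb10, or bomapin, a serpin of blood-forming cells, was at 2.44 ± 2.67 CPM per kb, and Serpinb9b, a close relative of Serpinb9, at 1.17 ± 1.29 CPM per kb. Serpinb6b, known in the mouse as an inhibitor of granzyme A, was at 0.774 ± 0.507 CPM per kb. Serpinb8, whose human form inhibits furin, was lowest at 0.497 ± 0.535 CPM per kb. From Serpinb2 downwards, the ranges of neighbours in this order overlapped.

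The genes lie in 2 clusters of the mouse genome (mm10, coordinates of the counts file). On chromosome 13, Serpinb1a spans 32842092 to 32851185 on the minus strand, Serpinb6b spans 32965209 to 32979067, Serpinb9 spans 33003250 to 33017957 and Serpinb9b spans 33027416 to 33041884 on the plus strand, and Serpinb6a spans 33917918 to 34002794 on the minus strand. On chromosome 1, Serpinb2 spans 107511423 to 107525598, Serpinb10 spans 107529003 to 107547222 and Serpinb8 spans 107590006 to 107610484, all on the plus strand. Close copies were checked by the words of 75 bases, the read length, that a member's transcripts in the GENCODE vM21 annotation share with other genes. Serpinb6b, Serpinb8 and Serpinb9 shared none, and Serpinb1a shared 0.311% of its words with Serpinb1b, which had 7 counts over all libraries. Serpinb2 and Serpinb10 shared 211 words with each other, or 9% of those of Serpinb2 and 6.06% of those of Serpinb10, although their exons in the counts file do not overlap. Serpinb9b shared 3.41% of its words with Gm36099, which overlaps 256 bases of its exons on the opposite strand and had 1 count over all libraries. Serpinb6a shared 22% of its words, with Nqo2, 1110046J04Rik and Ripk1. In the counts file its exons overlap 499 bases of 1110046J04Rik and 37 bases of Ripk1 on the opposite strand. The strand setting of the counting is not given in the sources used here, so reads over those bases cannot be told apart. 1110046J04Rik was at 2.46 ± 0.838 CPM and Ripk1 at 70.9 ± 5.77 CPM (SD, n = 12).

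The 3 neighbours on chromosome 1 were the members that were lowest in the number 3 library of every group, so their promoters are shown (RefSeq, GRCm38.p6, plus strand, 250 bases before to 50 bases after the annotated start, 5′ to 3′). Serpinb2 is given at chr1:107511173-107511472, the first of its 2 annotated starts, Serpinb10 at chr1:107528753-107529052 and Serpinb8 at chr1:107589756-107590055. Capitals mark the word TGANTCA, the core recognised by AP-1 factors.
Serpinb2: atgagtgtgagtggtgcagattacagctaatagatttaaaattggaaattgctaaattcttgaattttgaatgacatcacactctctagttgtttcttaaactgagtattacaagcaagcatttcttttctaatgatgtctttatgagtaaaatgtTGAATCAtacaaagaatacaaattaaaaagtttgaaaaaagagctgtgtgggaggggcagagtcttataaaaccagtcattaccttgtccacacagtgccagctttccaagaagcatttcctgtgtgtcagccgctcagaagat
Serpinb10: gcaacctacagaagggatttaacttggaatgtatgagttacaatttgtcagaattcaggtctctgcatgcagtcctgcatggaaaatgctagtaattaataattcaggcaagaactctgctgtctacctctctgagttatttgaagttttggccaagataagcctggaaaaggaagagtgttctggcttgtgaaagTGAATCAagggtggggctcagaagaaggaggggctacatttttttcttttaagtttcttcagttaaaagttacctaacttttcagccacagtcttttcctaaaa
Serpinb8: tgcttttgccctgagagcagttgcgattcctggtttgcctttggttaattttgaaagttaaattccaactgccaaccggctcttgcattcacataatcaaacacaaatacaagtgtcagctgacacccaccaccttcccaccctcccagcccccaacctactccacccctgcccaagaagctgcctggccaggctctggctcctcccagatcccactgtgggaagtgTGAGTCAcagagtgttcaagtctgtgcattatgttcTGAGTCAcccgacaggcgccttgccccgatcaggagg
The word reads TGAATCA at position -94 of Serpinb2 and at position -54 of Serpinb10, counted from the start site to the first base of the match. In Serpinb8 it reads TGAGTCA at -23 and again at 14. Of 32851 mouse promoters of the same 300-base length, 7.81% hold the word, which was searched on both strands and overlapped none of the other motifs in these windows. Serpinb2 also holds the TATA box word TATAAA at -29, the STAT word as TTCCAAGAA at 11 and the C/EBP word as TTGCTAAA at -202, and Serpinb10 holds the GATA word AGATAA at -95. In the window of Serpinb8, TGANTCA was the one word found of those searched. None of the promoter windows of Serpinb6a, Serpinb6b, Serpinb9 and Serpinb9b held TGANTCA, and Serpinb1a had no window here. The PU.1-type ETS word GAGGAA was found in windows of Serpinb6a, Serpinb6b and Serpinb9b, and in none of the windows shown. A window of Serpinb6a also held the STAT word, at -77 and 21. TGANTCA was picked for marking among the words searched, so its split between these genes is no test. The windows shown were picked by the levels of their genes, and a part of the word in those levels was not tested. The words searched besides TGANTCA, each on both strands, were the TATA box word TATAAA (13.6% of promoters), the PU.1-type ETS word GAGGAA (28.3% of promoters), the GATA words AGATAA and TGATAA (18.6%), the STAT word TTCNNNGAA (8.3%) and the C/EBP word TTGCNNAA (10.8%). A match is a match of letters only.

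**Figure D1:**
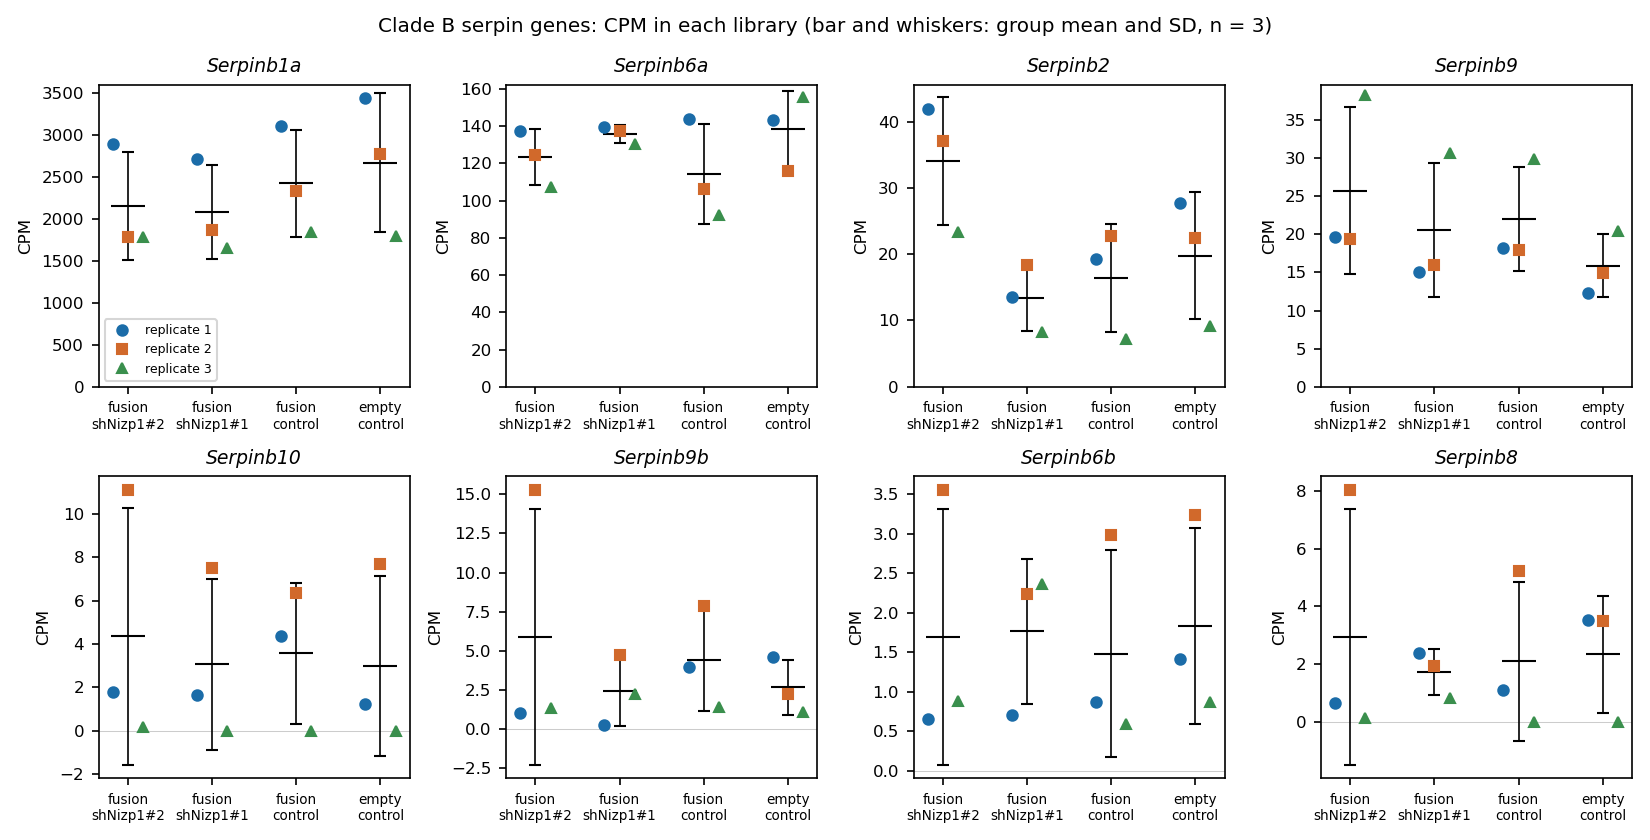
Level of each member in each library, in CPM on a linear axis, by group from left to right (fusion with shNizp1#2, fusion with shNizp1#1, fusion with sh#ctrl, empty vector with sh#ctrl). Points are libraries with the replicate number as colour and shape, and the bar with whiskers is the group mean and SD (n = 3). Whiskers that reach below 0 are mean minus SD and not a measured level; Serpinb2 is the panel in which the 3 shNizp1#2 libraries, at 41.9, 37.1 and 23.3 CPM, lie above the other fusion libraries.

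Serpinb2 was the member called between the Nizp1 shRNAs in the fit with the replicate block, and no member was called without the block. It encodes PAI-2, which inhibits the urokinase plasminogen activator and is strongly inducible in monocytes and macrophages. In replicates 1, 2 and 3 it was at 41.9, 37.1 and 23.3 CPM with shNizp1#2, at 13.6, 18.4 and 8.33 CPM with shNizp1#1, and at 19.3, 22.7 and 7.26 CPM in fusion cells with sh#ctrl. With the empty vector it was at 27.7, 22.4 and 9.12 CPM. The lowest shNizp1#2 library, number 3, lay above the highest library of either other fusion group, so those groups did not overlap. How many of all tested genes separate in this way was not counted, here or between replicate numbers. Within every group number 3 was the lowest library for Serpinb2.

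Between shNizp1#2 and shNizp1#1, the level of Serpinb2 was higher in 3 of 3 pairs of the same number, 3.09, 2.01 and 2.80 times as high. The log2 fold change was 1.37 in edgeR with the replicate block (SE 0.20, adjusted p = 0.00298). Without the block it was 1.36 (SE 0.49, adjusted p = 0.824), which did not pass the threshold of 0.05. The background in this comparison was 2.37% of tested genes called with the block and 0.00834% without it. Of the 8 members, 1 was called with the block and 0 without it. Without the block, 1 of the 8 members had an unadjusted p under 0.05 in edgeR, as had 609 of all 11994 tested genes. DESeq2 and limma-voom without the block called 0 of 8. The blocked call held with each of the 12 libraries left out in turn (adjusted p between 0.00184 and 0.0299), but leaving out replicate 3 in every group gave 1.32 with an adjusted p of 0.0596.

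Between shNizp1#2 and sh#ctrl in fusion cells, Serpinb2 was higher in 3 of 3 pairs, 2.17, 1.63 and 3.21 times as high. The log2 fold change was 1.13 with the block (SE 0.19, adjusted p = 0.0297) and 1.05 without it (SE 0.49, adjusted p = 1), in edgeR. The block called 0.217% of tested genes and 1 of 8 members, and the model without it 0.00834% of tested genes and 0 of 8 members. Without the block, 0 of 8 members had an unadjusted p under 0.05 in edgeR, against 285 of all 11994 tested genes. DESeq2 and limma-voom without the block called 0 of 8. This blocked call was lost when any of the 6 libraries compared was left out. The adjusted p was then 0.141, 0.0615 and 0.221 without shNizp1#2 replicate 1, 2 and 3, and 0.197, 0.0656 and 0.224 without sh#ctrl replicate 1, 2 and 3, at log2 fold changes between 0.97 and 1.30. Without replicate 3 in every group it was 0.358, at 0.91.

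Neutrophil marker genes moved with the contrast between the shRNAs. Of those 10 genes, 5 (Camp, Lcn2, Ngp, S100a8 and S100a9) were called higher and 0 lower with shNizp1#2 than with shNizp1#1 in the blocked fit. That fit called 2.37% of all tested genes. The sum of the 10 ran over libraries from 9.39 to 1597 CPM with shNizp1#2 and from 10.4 to 846 CPM with shNizp1#1. The lowest sums were those of number 3, where 3 of the 10 genes had a count with shNizp1#2 and 6 with shNizp1#1. Against sh#ctrl, 0 of the 10 were called with shNizp1#2, where sh#ctrl libraries ran from 3.34 to 1557 CPM. Of the 9 monocyte and macrophage markers, 0 were called between the shRNAs, and their sum was 530 to 3779 CPM with shNizp1#2 and 863 to 3529 CPM with shNizp1#1. Of the 7 dendritic cell and MHC class II markers, 1 (Ciita) was called higher with shNizp1#2 than with shNizp1#1, and 6 lay above 0. An unadjusted p under 0.05 was found for 4 of the 7, and for 1779 of all 11994 tested genes. The median of the 7 markers was 0.65 on the log2 scale. They summed to 72.2 to 573 CPM with shNizp1#2 and 64.3 to 366 CPM with shNizp1#1. Against sh#ctrl, 0 of these 7 were called with shNizp1#2, and 5 lay above 0 (median 0.87, with sums of 60.2 to 406 CPM in sh#ctrl libraries). There 4 of the 7 had an unadjusted p under 0.05, as had 1331 of all 11994 tested genes. Of the 5 eosinophil markers tested, 1 (Epx) was called higher between the shRNAs, and 0 against sh#ctrl. These called markers were chosen for naming after their values were seen. The part of these cell types in the Serpinb2 difference was not tested. In RNA from whole cultures, fewer cells of a type and less RNA per cell cannot be told apart.

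**Figure D2:**
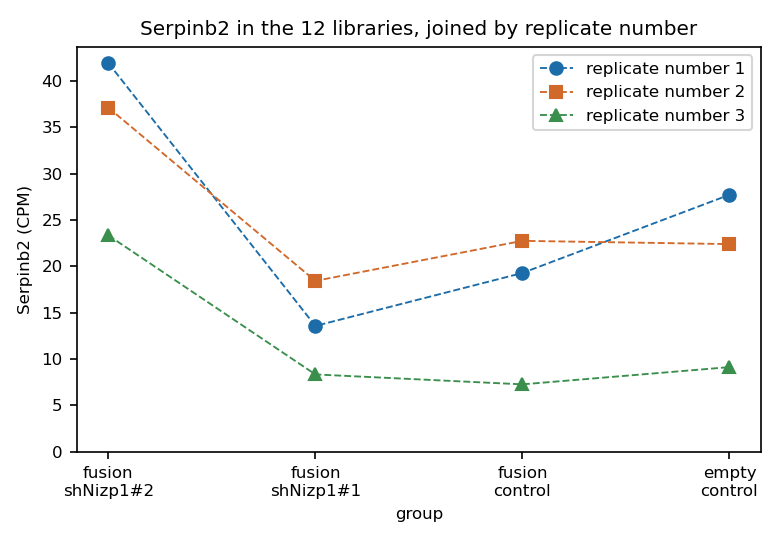
Serpinb2 in the 12 libraries, in CPM, with groups from left to right as fusion with shNizp1#2, fusion with shNizp1#1, fusion with sh#ctrl and empty vector with sh#ctrl. Each point is a library and dashed lines join libraries of the same replicate number; each line is highest at shNizp1#2, and number 3, at 23.3, 8.33, 7.26 and 9.12 CPM, runs below the others.

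Between shNizp1#1 and sh#ctrl in fusion cells, 0 of 8 members were called. With the block 1.63% of tested genes were called, and without it 0%. An unadjusted p under 0.05 was found for 0 of 8 members in either design. Of all 11994 tested genes, 1479 had one with the block and 480 without it. DESeq2 and limma-voom called 0 of 8 in both designs. The blocked log2 fold change of Serpinb2 was -0.24 in edgeR (SE 0.21, adjusted p = 0.724), lower in 2 of 3 pairs, and -0.30 without the block (SE 0.49, adjusted p = 1). Of the 10 neutrophil markers, 0 were called higher and 5 lower in this comparison with the block, and of the 5 eosinophil markers tested 0 were called higher and 2 lower. This comparison and that of shNizp1#2 share their sh#ctrl libraries.

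Serpinb1a, the elastase inhibitor, was at 2899, 1783 and 1790.3 CPM with shNizp1#2 in replicates 1, 2 and 3, at 2717, 1872 and 1659 CPM with shNizp1#1, and at 3104, 2336 and 1840.4 CPM in fusion cells with sh#ctrl. With the empty vector it was at 3446, 2777 and 1792 CPM. Number 1 was the highest library of each group, and the 4 groups overlapped. Against sh#ctrl it was lower in 3 of 3 pairs with either shRNA, with blocked log2 fold changes of -0.17 for shNizp1#2 (SE 0.10, adjusted p = 0.577) and -0.22 for shNizp1#1 (SE 0.10, adjusted p = 0.415 in edgeR), neither of which passed the threshold. Without the block these were also -0.17 and -0.22 (SE 0.30 and adjusted p = 1 for both).

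Serpinb6a, the cathepsin G inhibitor, varied least of the 8 members over the libraries. It was at 137, 125 and 108 CPM with shNizp1#2, at 139, 137 and 131 CPM with shNizp1#1, at 144, 106 and 92.0 CPM in fusion cells with sh#ctrl, and at 143, 116 and 156 CPM with the empty vector. All groups overlapped. The blocked log2 fold changes were 0.12 for shNizp1#2 (SE 0.13, adjusted p = 0.780) and 0.27 for shNizp1#1 against sh#ctrl (SE 0.13, adjusted p = 0.443 in edgeR). Without the block they were 0.11 and 0.25 (SE 0.17 and adjusted p = 1 for both).

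Serpinb9, which protects cells from granzyme B, was at 19.6, 19.3 and 38.3 CPM with shNizp1#2, at 15.0, 15.9 and 30.7 CPM with shNizp1#1, at 18.2, 17.9 and 29.8 CPM in fusion cells with sh#ctrl, and at 12.4, 14.9 and 20.4 CPM with the empty vector. Number 3 was the highest library in each group and the groups overlapped. With shNizp1#2 it was higher than with shNizp1#1 in 3 of 3 pairs, at 1.31, 1.21 and 1.25 times the level, and the blocked edgeR value of 0.32 on the log2 scale (SE 0.15, adjusted p = 0.331) did not pass. Without the block it was also 0.32 (SE 0.37, adjusted p = 1).

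Between NUP98-NSD1 and the empty vector, both with sh#ctrl, 0 of 8 members were called, against 0.275% of tested genes with the block and 0.00834% without it. With the block 2 of 8 members had an unadjusted p under 0.05, and without it 0 of 8. Of all 11994 tested genes, 1319 had one with the block and 320 without it. DESeq2 and limma-voom called 0 of 8 members in both designs. Serpinb9 was higher with the fusion in 3 of 3 pairs, at 1.47, 1.20 and 1.46 times the level (blocked log2 fold change 0.46, SE 0.15, adjusted p = 0.309 in edgeR). Serpinb6a was at -0.29 on the log2 scale (SE 0.13, adjusted p = 0.442), lower in 2 of 3 pairs, with most of the gap in number 3, where it was at 0.591 times the empty vector level. Serpinb2 was at -0.28 (SE 0.20, adjusted p = 0.656) and Serpinb1a at -0.13 (SE 0.10, adjusted p = 0.701), each lower in 2 of 3 pairs. Without the block these values were 0.47 for Serpinb9 (SE 0.37), -0.28 for Serpinb6a (SE 0.17), -0.27 for Serpinb2 (SE 0.49) and -0.14 for Serpinb1a (SE 0.30), each with an adjusted p of 1 in edgeR.

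The members went in both directions in each comparison. With the block, 6 of 8 lay above 0 with shNizp1#2 and 3 of 8 with shNizp1#1 against sh#ctrl, 6 of 8 between shNizp1#2 and shNizp1#1, and 3 of 8 with the fusion. The median log2 fold changes, which include 4 genes with few counts, were 0.14, -0.17, 0.21 and -0.20 in that order. Without the block they were 0.26, -0.25, 0.44 and -0.14. The median of all tested genes was within 0.01 of 0 in each of these comparisons.

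**Figure D3:**
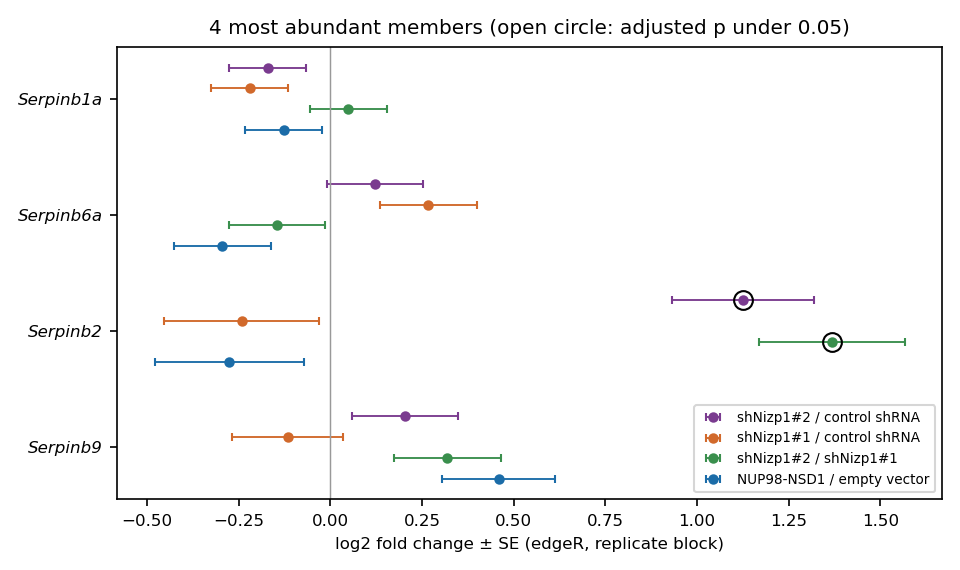
Log2 fold change with its SE (horizontal bars) of the 4 most abundant members in the edgeR fit with the replicate block, for shNizp1#2 over sh#ctrl, shNizp1#1 over sh#ctrl, shNizp1#2 over shNizp1#1 and NUP98-NSD1 over the empty vector, from top to bottom within a gene. The open circles mark the 2 comparisons with an adjusted p under 0.05, both of Serpinb2, at 1.13 and 1.37.

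The remaining members had few counts, so their levels are given without fold changes between groups. Serpinb10 was at 1.79, 11.1 and 0.147 CPM with shNizp1#2, at 1.67, 7.54 and 0 CPM with shNizp1#1, at 4.38, 6.34 and 0 CPM in fusion cells with sh#ctrl and at 1.24, 7.71 and 0 CPM with the empty vector. Serpinb8 was at 0.652, 8.04 and 0.147 CPM with shNizp1#2, at 2.38, 1.95 and 0.833 CPM with shNizp1#1, at 1.09, 5.22 and 0 CPM with sh#ctrl and at 3.53, 3.48 and 0 CPM with the empty vector. For both genes number 3 was the lowest library of every group and all groups overlapped. Serpinb9b was at 0.979, 15.3 and 1.32 CPM with shNizp1#2, at 0.238, 4.74 and 2.22 CPM with shNizp1#1, at 3.94, 7.83 and 1.37 CPM with sh#ctrl and at 4.59, 2.24 and 1.09 CPM with the empty vector. Serpinb6b stayed between 0.589 and 3.56 CPM in all 12 libraries. A level of 0 allows up to 3 counts, or 0.417 to 0.837 CPM by library, and does not show that the gene was silent.

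The replicate number went with more of the variance than the group did in 7 of the 8 members, all but Serpinb6a. In a breakdown of the variance of log2(CPM + 1) over the 12 libraries, it held 94.1% for Serpinb10, 78.4% for Serpinb1a, 73.6% for Serpinb8, 73.2% for Serpinb6b and 70.1% for Serpinb9, against a median of 48.7% over all tested genes. It held 48.3% for Serpinb2, 46.5% for Serpinb9b and 26.9% for Serpinb6a. The group held 45.5% for Serpinb2, the highest share of the 8, and 30.8% for Serpinb6a, 25.7% for Serpinb9 and 14.3% for Serpinb1a, against a median of 20.6% over all tested genes. In Serpinb9b, Serpinb6b, Serpinb10 and Serpinb8 the group held 7.97%, 2.93%, 1.33% and 0.612%.

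**Figure D4:**
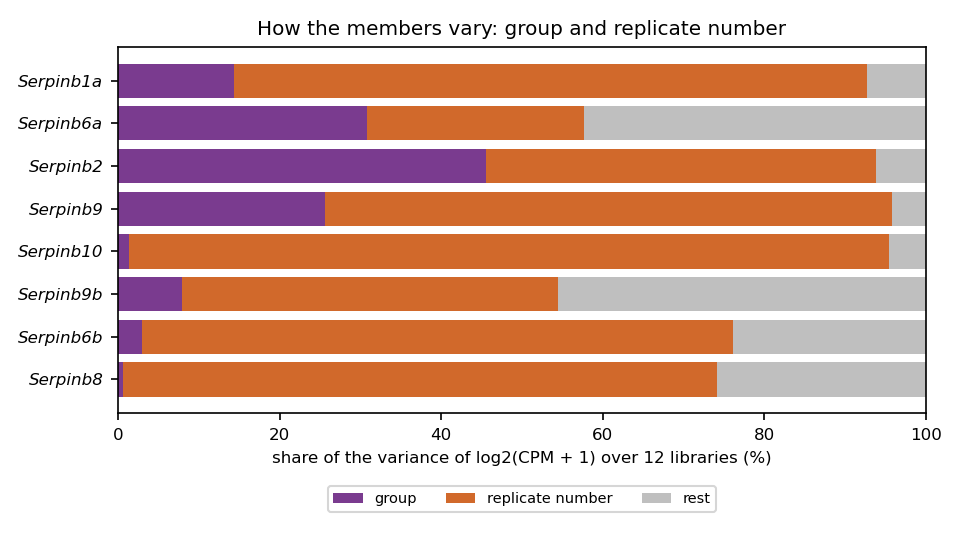
Share of the variance of log2(CPM + 1) over the 12 libraries that goes with the group, with the replicate number and with the rest, in percent, for each member. Serpinb10 has the largest replicate number share, at 94.1%, and Serpinb2 the largest group share, at 45.5%.

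Between number 3 and number 2, edgeR called 7 of 8 members in an additive model of group and replicate number, where 49.6% of tested genes were called. Serpinb10 had 1 count over the 4 number 3 libraries, against 164 counts over the number 2 libraries. The ratio of its summed levels was 0.00500 (95% interval 0.000126 to 0.0282, exact binomial, counting error only), with an adjusted p of 2.83e-06. That 1 count lay in shNizp1#2 replicate 3. Serpinb8 had 7 counts in number 3, against 101 in number 2, a ratio of 0.0568 (95% interval 0.0223 to 0.121), with a log2 fold change of -3.98 and an adjusted p of 0.00292. Of the 7 counts 6 lay in shNizp1#1 replicate 3, and of the 101 counts 52 lay in shNizp1#2 replicate 2. Without the first of these libraries the log2 fold change was -5.96 and without the second -3.29, and the call held with each of the 12 libraries left out in turn. Serpinb2 fell by 1.13 on the log2 scale (SE 0.18, adjusted p = 1.83e-04) and was lower in 4 of 4 groups. Serpinb9 moved the other way, at 29.8 ± 7.33 CPM in number 3 and 17.0 ± 1.97 CPM in number 2 (SD, n = 4 each), with a log2 difference of 0.80 (SE 0.13, adjusted p = 2.22e-04), higher in 4 of 4 groups with no overlap.

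The other changes between number 3 and number 2 were less firm. Serpinb1a (log2 fold change -0.29, adjusted p = 0.0175), Serpinb6b (-1.36, adjusted p = 0.0228) and Serpinb9b (-2.19, adjusted p = 0.0392) were called, but each call ended when some single libraries were left out. For Serpinb1a these were empty vector replicate 3 (-0.20) and sh#ctrl replicates 2 and 3 (-0.27 and -0.28). For Serpinb6b they were empty vector replicate 3 (-1.16), sh#ctrl replicates 2 and 3 (-1.23 and -1.14) and shNizp1#2 replicates 2 and 3 (-1.14 and -1.21). The Serpinb9b call ended without empty vector replicate 3 (-2.10), sh#ctrl replicate 2 or 3 (-2.27 and -2.02), shNizp1#1 replicate 2 (-2.27) and shNizp1#2 replicate 2 or 3 (-1.39 and -1.87). Serpinb6a was not called (-0.01, adjusted p = 0.942).

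Between number 3 and number 1, 4 of 8 members were called, against 26.2% of tested genes. Serpinb1a was at 1771 ± 77.6 CPM in number 3 and 3041 ± 313 CPM in number 1 (SD, n = 4 each), lower in 4 of 4 groups without overlap, with a log2 difference of -0.77 (SE 0.09, adjusted p = 4.86e-05). Serpinb2 was lower, with a log2 difference of -1.11 (SE 0.18, adjusted p = 5.19e-04), and Serpinb9 higher, with one of 0.87 (SE 0.13, adjusted p = 2.89e-04). Serpinb10, with 1 count in number 3 against 45 in number 1, had a ratio of 0.0193 (95% interval 0.000477 to 0.113) and an adjusted p of 5.33e-04. Serpinb8 had 7 counts against 39 and was not called (adjusted p = 0.068). Serpinb6a, Serpinb6b and Serpinb9b were not called either.

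Between number 2 and number 1, 3 of 8 members were called, against 25.9% of tested genes. Serpinb10 was at 8.18 ± 2.06 CPM in number 2 and 2.27 ± 1.43 CPM in number 1 (SD, n = 4 each), with a log2 difference of 1.91 (SE 0.38, adjusted p = 0.00317), higher in 4 of 4 groups without overlap. Serpinb6b had 60 counts in number 2 and 19 in number 1, higher in 4 of 4 groups without overlap, with a log2 difference of 1.73 (adjusted p = 0.0182). That call ended without sh#ctrl replicate 2 (1.60), shNizp1#1 replicate 1 (1.57) or shNizp1#2 replicate 1 or 2 (1.58 and 1.51). Serpinb1a was lower in 4 of 4 groups, at -0.48 on the log2 scale (SE 0.09, adjusted p = 0.00200).

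Beside these differences stand the neutrophil sums of 2.82 to 10.4 CPM in number 3, 846 to 1609 CPM in number 2 and 202 to 454 CPM in number 1, and the monocyte and macrophage sums given with the libraries. The 6 eosinophil markers summed to 4.34 to 11.2 CPM in number 3, 23.2 to 181 CPM in number 2 and 15.0 to 23.3 CPM in number 1. The 7 dendritic cell and MHC class II markers summed to 31.1 to 72.2 CPM in number 3, 160.2 to 573 CPM in number 2 and 80.8 to 127 CPM in number 1. Of these 7, 6 were called lower in number 3 than in number 2, 5 lower in number 3 than in number 1 and 6 higher in number 2 than in number 1. Of the 9 mast cell markers, whose sums in number 3 and number 1 did not overlap, 6 were called lower and 0 higher in number 3 than in number 1. Against number 2, 5 were lower and 2 higher in number 3. Of the 4 megakaryocyte markers, 3 were called lower in number 3 than in number 1 and 2 lower than in number 2. Of the 5 stem and progenitor markers, 3 were called higher and 1 lower in number 3 than in number 2. Against number 1, 1 was higher and 1 lower in number 3, and 0 were higher and 2 lower in number 2. Of all tested genes, 26.2% were called between numbers 3 and 1, in either direction. The share was 49.6% between numbers 3 and 2 and 25.9% between numbers 2 and 1. Of the 5 granulocyte-monocyte progenitor markers, 1 (Ctsg) was called higher and 4 lower in number 3 against either other number. Their sums were 467 to 987 CPM in number 3, 345 to 963 CPM in number 2 and 244 to 462 CPM in number 1. Ctsg made up most of the sum in number 3. The 8 T and NK cell markers, among which 2 to 4 genes had counts in a library, summed to 3.04 to 8.76 CPM over all libraries. The part of these cell types in the members' levels was not tested, and what the number 3 cultures shared otherwise cannot be told apart from the number itself.

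**Figure D5:**
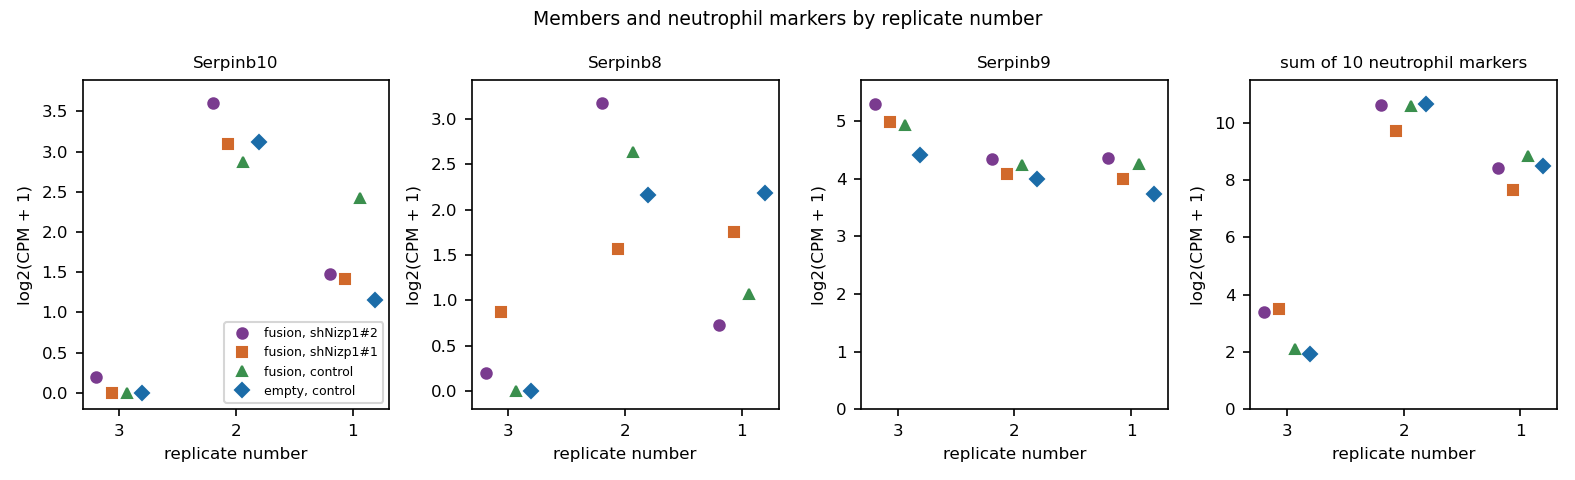
Serpinb10, Serpinb8, Serpinb9 and the sum of 10 neutrophil markers in log2(CPM + 1), by replicate number 3, 2 and 1, with the group as colour and shape. Within each group, Serpinb10, Serpinb8 and the neutrophil sum (2.82 to 10.4 CPM) are lowest in number 3, and Serpinb9 (20.4 to 38.3 CPM) is highest there. Over all groups, Serpinb8 overlaps between numbers 3 and 1.

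The proteases that clade B serpins inhibit were measured in the same libraries. Of 25 listed proteases and near relatives, 21 were tested, and with the block 0 of them were called with the fusion or with either shRNA against sh#ctrl. Between shNizp1#2 and shNizp1#1, 0 were called higher and 1 lower, where the block called 2.37% of all tested genes. The gene called was the mast cell protease gene Mcpt1 (log2 fold change -2.32, SE 0.42, adjusted p = 0.01 in edgeR with the block). It was at 0.326, 0.309 and 5.14 CPM with shNizp1#2 and 3.09, 1.12 and 25.6 CPM with shNizp1#1. The first 2 of these levels lay under that of 3 counts in their libraries, at 0.489 and 0.464 CPM. Without the block 0 of 21 were called in any of the 4 comparisons. Mcpt genes are close relatives, and reads between them may be split.

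Among the named partners, Gzmb, the granzyme B that Serpinb9 inhibits, averaged 1689 CPM (952 to 2566 CPM), and its blocked log2 fold changes were 0.45 with the fusion (adjusted p = 0.654), -0.35 with shNizp1#2 (adjusted p = 0.737) and -0.46 with shNizp1#1 (adjusted p = 0.637). Plau, the urokinase that PAI-2 inhibits, averaged 203 CPM over the 12 libraries (84.4 to 362 CPM). Furin averaged 2052 CPM and Cma1, the mast cell chymase, 11234 CPM. Gzma, the granzyme A that Serpinb6b inhibits, and Plat had 0 counts in all 12 libraries.

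Between replicate numbers, proteases were called in both directions. Of the 21 tested, 3 were higher and 12 lower in number 3 than in number 2, where 49.6% of all tested genes were called. Against number 1, 3 were higher and 7 lower in number 3 (26.2% of all tested genes), and 4 were higher and 3 lower in number 2 (25.9%). Elane, neutrophil elastase, was at 0 to 0.293 CPM in number 3, 17.3 to 58.5 CPM in number 2 and 5.23 to 22.0 CPM in number 1, with 5, 668 and 256 counts in all (adjusted p = 3.37e-04 against number 2 and 0.00453 against number 1). Prtn3, proteinase 3, was at 0.278 to 2.79 CPM in number 3, 54.4 to 157 CPM in number 2 and 14.7 to 55.4 CPM in number 1. Ctsg, cathepsin G, lay on the other side, at 461 to 982 CPM in number 3, 134 to 295 CPM in number 2 and 149 to 273 CPM in number 1 (log2 fold change 1.74 against either number, adjusted p = 0.00459 and 0.00905). Serpinb1a, whose product inhibits all of these enzymes, was at 1771 ± 77.6, 2192 ± 459 and 3041 ± 313 CPM in numbers 3, 2 and 1.

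Of 20 other clade B genes listed, 19 were in the file and 0 passed the filter. Serpinb1c had 48 counts over the 12 libraries, 34 of them in number 2, and Serpinb9g had 23 counts, 21 of them in number 2 and 0 in number 3. Of 18 serpins of other clades, 5 were tested and 0 were called in the comparisons of groups or of replicate numbers. Serpina3g, at 460.1 CPM, and Serpina3f, at 38.6 CPM, were the most abundant of these.

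Likeness of pattern was measured by Pearson's r of log2(CPM + 1) over the 12 libraries after the mean of each replicate number was subtracted, among 9781 genes that averaged at least 5 CPM. The r values are descriptions, since the libraries share groups and replicate numbers. For Serpinb2 the 3 most alike genes were Slc6a19 (r = 0.96), a neutral amino acid transporter, Bcl2 (r = 0.95), the inhibitor of apoptosis, and Fam49a (r = 0.91). Without the subtraction r was 0.92, 0.94 and 0.69 for these genes. For Serpinb1a they were Eif3d (r = 0.96), Cpa3 (r = 0.95), the mast cell carboxypeptidase, and Aspm (r = 0.95), of which only Cpa3 kept a like value without the subtraction (r = 0.98, against -0.07 for Eif3d and 0.20 for Aspm). For Serpinb9 they were Runx2 (r = 0.96), Stap1 (r = 0.95) and D3Ertd751e (r = 0.93), with r of 0.74, 0.61 and 0.24 without the subtraction. For Serpinb6a they were P3h3 (r = 0.94), Pla2g7 (r = 0.94) and Cuedc1 (r = 0.93), with r of 0.61, 0.57 and 0.90 without it.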

How the data were processed

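Polyadenylated RNA (1 µg of total RNA) was read as single 75 nt reads from stranded libraries, per the labels' protocols. The deposited file holds raw read counts for each gene, which the authors made with Trimmomatic 0.32, STAR 2.5.3a and featureCounts on mm10, per the submitters' processing notes. The featureCounts version, strand setting and annotation were not given in the sources used here.

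Counts were analysed with edgeR 4.0.16 in R 4.3.3 by the quasi-likelihood test (robust, TMM scaling, low counts filtered on the group design) with 1 mean per group over all 12 libraries, Benjamini-Hochberg adjusted over 11994 tested genes at a threshold of 0.05. Every adjusted p of the report comes from this tool unless another is named. SEs were derived from the F statistic. Replicate numbers were compared in an additive model of group and number. The number was not in the group model, because the labels do not tie it to an experiment. Deviations from group means then correlated in all 18 pairs of the same number (median r 0.74, range 0.22 to 0.88). All 12 libraries correlated best with their own number, so blocked values are given beside those of the group model. The median r of pairs with different numbers was -0.20. Deviations of the 3 libraries of a group sum to 0 for each gene, which by itself pushes that r below 0 when the r within numbers is positive. Every 2 replicates of a group differed by more than sampling noise.

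The members, gene lists and tests were chosen with earlier results of these data known. The genes named are the 8 members, Zkscan17, up to 4 called or the 2 most abundant genes of each list, and the 3 genes most alike in pattern; other listed proteases and serpins that are named for the enzyme pairs were chosen after their values were seen. Alternatives were RLE and upper-quartile scaling, other low-count filters, DESeq2 1.42.0, limma-voom (limma 3.58.1), fits of only the groups compared and left-out libraries. The replicate block was fitted with the main settings and with each of these except the filters and the fits of only the groups compared. Intervals and the limit of 3 counts cover counting error only, since reads carry no molecular identifiers. Promoters were matched by symbol for 7 of the 8 members.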

Additional observations from a re-analysis of the deposited data

How the results depend on the processing

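Under the alternatives, 951 of 1040 gene values kept their direction and their side of the threshold, 40 gained a call, 20 lost one and 29 changed sign. Of 206 counts of called members, 174 stayed within 1.5 times. With the replicate block, and with the block under RLE scaling, upper-quartile scaling, DESeq2 or limma-voom, 1 member (Serpinb2) was called between shNizp1#2 and sh#ctrl and 1 (Serpinb2) between shNizp1#2 and shNizp1#1, where the model without the block called 0. The block changed no other member's call. Over all tested genes the block called 33 with the fusion, 195 with shNizp1#1, 26 with shNizp1#2 and 284 between the shRNAs, against 1, 0, 1 and 1 without it, and DESeq2 without the block called 8, 50, 7 and 73.

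Without a filter, 5 members were called between numbers 2 and 1, against 3. Serpinb2 between numbers 2 and 1 was at -0.04 in limma-voom, and Serpinb6a between numbers 3 and 2 at 0.01 with upper-quartile scaling and 0.01 with no filter; both were uncalled throughout. The Serpinb6b call between numbers 3 and 2 was lost in DESeq2 (adjusted p = 0.0514) and the Serpinb9b call in limma-voom (adjusted p = 0.0502). The cause was not tested.

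The next ranges are over fits with single libraries left out, with and without the block, and with replicate 3 left out without the block. The members called ran from 0 to 1 for shNizp1#2 against sh#ctrl, from 0 to 1 between the shRNAs and from 4 to 7 between numbers 3 and 2. The log2 fold change of Serpinb2 ran from 0.70 to 1.37 and from 1.09 to 1.65 in the first 2 of these. Changes that crossed 0 were all uncalled. With the fusion, Serpinb1a ran from -0.36 to 0.08 and Serpinb2 from -0.61 to 0.09. With shNizp1#1, Serpinb2 ran from -0.66 to 0.01 and Serpinb9 from -0.51 to 0.20. With shNizp1#2, Serpinb1a ran from -0.43 to 0.05, Serpinb6a from -0.02 to 0.31 and Serpinb9 from -0.18 to 0.51. Between the shRNAs, Serpinb1a ran from -0.21 to 0.27 and Serpinb9 from -0.09 to 0.74. Between numbers 2 and 1, Serpinb2 ran from -0.10 to 0.18. Between numbers 3 and 2, Serpinb6a ran from -0.14 to 0.09, and between numbers 3 and 1 Serpinb6b ran from -0.30 to 0.70 and Serpinb9b from -1.20 to 0.26.

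RLE and upper-quartile scaling moved levels by factors between 0.971 and 1.03. Depth limits Serpinb6b, Serpinb8, Serpinb9b and Serpinb10, which had 109, 147, 255 and 210 counts over all libraries. None of these 4 was called between groups with or without the block.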
